A study of Homo sapiens with 9 samples.

Results

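Both drug-resistant sublines of the colorectal carcinoma line HCT116 were set together against the parental line, to see which mature miRNAs moved the same way under resistance to either drug. Members were chosen by line: all 9 of the 9 samples of the series entered, 6 of them from the resistant sublines and 3 from HCT116. HCT116 is an established human colorectal carcinoma epithelial cell line and was grown without selection. HCT-Oxa-c was derived from it by continuous exposure to rising concentrations of oxaliplatin, a platinum compound that crosslinks DNA, and HCT-FU-c by the same regimen with 5-fluorouracil (5-FU), a pyrimidine analogue that blocks thymidylate synthase. Each line gave 3 biological replicates of small RNA sequencing, and with a single subline per drug the p-values reflect variation among cultures of that subline and not among independent selections. Both sublines share the same 3 HCT116 libraries as control. In the joint contrast each subline had the same weight, so that its log2 fold change is the mean of the changes of both. A miRNA can therefore pass this test through a change in 1 subline, so for the called miRNAs the change in each subline, or its ratio of counts, is given as well.

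A mature miRNA is a short RNA released from a hairpin precursor that guides Argonaute proteins to messenger RNAs, mostly through its seed, the bases near its 5′ end, and lowers their translation or stability. Each hairpin can give a guide from one arm and a less abundant passenger from the other, and hairpins that lie close together are often transcribed as 1 cluster. In colorectal epithelium the miR-200 family is known for holding the epithelial state, miR-143 and miR-145 are best known from smooth muscle and stroma and are usually lower in tumours, and miR-21-5p is abundant in most carcinoma lines.

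The sequences shown are of miRNAs described below, credited to RefSeq on GRCh38.p14, in which all 22 named miRNAs were matched. They are not all of shared changes: beyond the first set, each miRNA shown had a called difference between the sublines with the block. Each is written 5′ to 3′ in lower case, with the seed (bases 2 to 8) in capitals. The first set holds the called miRNAs for which the difference between the sublines was not itself called.
miR-143-3p: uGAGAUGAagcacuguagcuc
miR-27a-5p: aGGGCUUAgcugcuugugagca
miR-589-5p: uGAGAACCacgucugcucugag
miR-22-3p: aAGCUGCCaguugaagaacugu

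The next set holds both arms of the miR-30a hairpin, whose joint decrease was the largest, and miR-203b-3p beside miR-203a-3p, whose hairpin lies on the opposite strand of the same locus and whose seed differs.
miR-30a-5p: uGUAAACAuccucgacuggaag
miR-30a-3p: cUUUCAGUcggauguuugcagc
miR-203b-3p: uUGAACUGuuaagaaccacugga
miR-203a-3p: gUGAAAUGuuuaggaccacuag

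The last set holds the pairs from the paralogous miR-23a/27a/24-2 and miR-23b/27b/24-1 clusters, which share their seed within each pair. Counting from 1 at the 5′ end, and over the bases that both have, miR-23b-3p differs from miR-23a-3p by U19A and miR-27b-3p from miR-27a-3p by C19U, so reads of a pair differ at 1 base and the counts of all 4 are uncertain where the authors' counting could have split such reads.
miR-23a-3p: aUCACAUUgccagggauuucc
miR-23b-3p: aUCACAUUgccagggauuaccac
miR-27a-3p: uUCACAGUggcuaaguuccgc
miR-27b-3p: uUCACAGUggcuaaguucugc

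Total counts were 1423526, 1414341 and 856383 in replicates 1, 2 and 3 of HCT116, 1950307, 2207538 and 1088268 in HCT-Oxa-c, and 1230774, 1487737 and 919675 in HCT-FU-c. Levels are given as CPM, the usual unit of counts scaled by library size, here after TMM scaling, and a count of 3, the floor used for a single library, corresponded to 1.34 to 4.01 CPM. The reads are PCR products without molecular identifiers, so this floor and all counting intervals cover counting error only. The replicate 3 libraries stood apart from the others in every line. The summed level of the 7 blood cell markers on the list was 17.0, 27.1 and 397 CPM in HCT116, 10.5, 22.3 and 583 CPM in HCT-Oxa-c, and 42.3, 36.8 and 289 CPM in HCT-FU-c. It was highest in replicate 3 of each line, the most abundant marker was miR-486-5p, and the erythrocyte marker miR-451a went from 0 to 1.36 CPM in replicates 1 and 2 to between 83.4 and 252 CPM in replicate 3. The rise of the sum came mostly from these 2 members. At lower levels, miR-144-3p and miR-223-3p were also highest in replicate 3 of each line, at no more than 13.3 CPM. The markers miR-142-3p, miR-142-5p and miR-150-5p did not follow this pattern and did not pass 7.14 CPM in any library. The hepatocyte marker miR-122-5p followed the same pattern, with 60.1, 46.2 and 23.8 CPM in replicate 3 of the parental line, HCT-Oxa-c and then HCT-FU-c, and at most 3.67 CPM in the other libraries. The markers of colorectal epithelium, 9 of which were listed, summed to between 22100 and 29100 CPM in all 9 libraries, led by miR-200c-3p. The sum came mostly from the miR-200 family, which marks epithelia in general, while the intestinal members of the list were far lower, with miR-192-5p at 34.5 to 70.2 CPM, miR-194-5p at 48.2 to 202 CPM and miR-215-5p at 1.05 to 18.5 CPM. Of the muscle and neuron markers, miR-1-3p did not pass 8.01 CPM and miR-124-3p 1.51 CPM in any library, while miR-9-5p lay between 2460 and 3550 CPM in all lines. Of these lists 8 epithelial, 2 blood cell, 1 hepatocyte, 1 neuron and 0 muscle markers passed the filter, and none was called in the joint contrast by edgeR with the block, with 0 at an unadjusted p below 0.05 and 0 called by DESeq2. The part of these markers in the results was not tested.

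**Figure D1:**
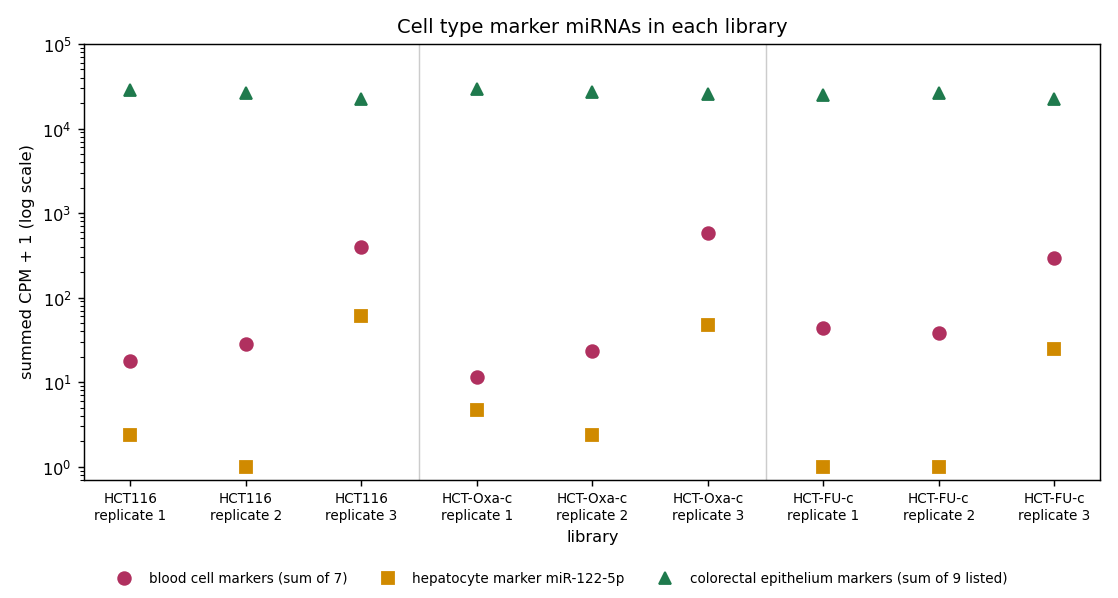
Summed CPM + 1 on a log scale (vertical axis) of the blood cell, hepatocyte and colorectal epithelium markers in each of the 9 libraries (horizontal axis), 1 point per library. The blood cell markers reached 397, 583 and 289 CPM in the replicate 3 libraries and no more than 42.3 CPM in the others, while the epithelial markers stayed between 22100 and 29100 CPM.

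In the model of the line alone, 3 of the 367 tested miRNAs differed between both sublines together and HCT116 (0.817% of those tested), namely miR-30a-5p and miR-30a-3p, which were lower, and miR-23b-3p, which was higher. All 3 had the same sign in both sublines. Calls came from the quasi-likelihood F test of edgeR with Benjamini-Hochberg adjustment over the 367 miRNAs, at an adjusted p below 0.05, and 21 miRNAs had an unadjusted p below that value. DESeq2 with the same model called 9 miRNAs, the same 3 and miR-27b-3p, miR-27a-5p (DESeq2 adjusted p = 0.0163), miR-629-5p (0.0195), miR-589-5p (0.0207), miR-205-5p (0.0207) and miR-330-3p (0.0301). Libraries with the same replicate number deviated together, but mainly replicate 3 stood apart. Replicates 1 and 2 correlated with each other about as strongly as with their own number, so their pairing by number is not shown by the data. The model was also fitted with a blocking term for replicate number, and these values stand beside the first where the call changed. With the block edgeR called 18 miRNAs (4.9%), 6 of them higher (1.63%) and 12 lower (3.27%), and 17 of the 18 had the same sign in both sublines (4.63% of all tested), 5 higher and 12 lower. This count is a description and no test, since the calls were made on the mean of both changes and both changes share the HCT116 libraries. The calls rested mostly on HCT-Oxa-c: of the 18, 13 were called in HCT-Oxa-c but not in HCT-FU-c, 1 in HCT-FU-c but not in HCT-Oxa-c, and 4 in both. The difference between the sublines was itself called for 14 of the 18 and was not called for miR-143-3p, miR-27a-5p, miR-589-5p and miR-22-3p.

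For each subline alone, 9 miRNAs were called in HCT-Oxa-c without the block (2.45%) and 54 with it (14.7%). In HCT-FU-c the count was 0 without the block by edgeR (0%), with 15 miRNAs at an unadjusted p below 0.05 and 4 called by DESeq2, among them miR-27a-5p and miR-589-5p (DESeq2 adjusted p = 0.0438 each), and it was 20 with the block (5.45%). The sublines differed from each other in 16 miRNAs without the block (4.36%) and 97 with it (26.4%). Treating the 6 subline libraries as 1 group, with no term for the subline, left 0 calls by edgeR, with 14 miRNAs at an unadjusted p below 0.05, and there miR-30a-5p, miR-30a-3p and miR-23b-3p had adjusted p-values of 0.997 each. Calls also moved with single libraries. The count without the block was 1 without HCT-Oxa-c replicate 2, and the count with the block was 6 without HCT-Oxa-c replicate 1 and 36 without HCT-FU-c replicate 2. With replicates 1 and 2 of each line only, 14 miRNAs were called without the block and 22 with it. This setting leaves out the libraries in which the summed blood cell markers were highest, and without the block it was chosen after seeing the data. For single miRNAs the adjusted p-values are those of edgeR with Benjamini-Hochberg adjustment.

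**Figure D2:**
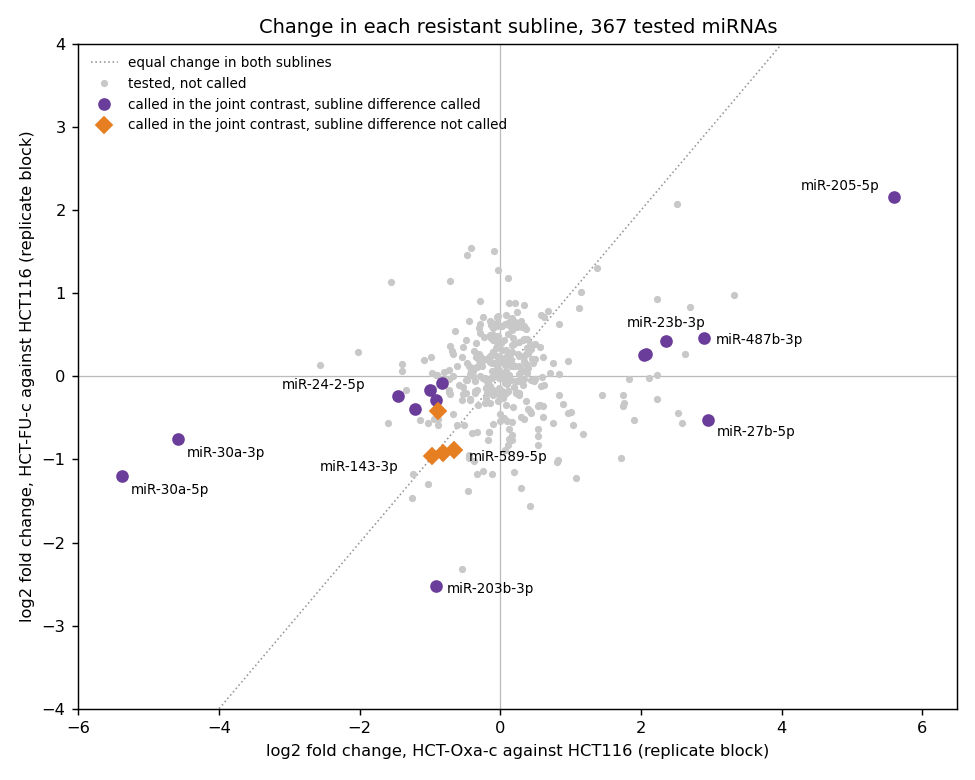
Log2 fold change against HCT116 in HCT-Oxa-c (horizontal axis) and HCT-FU-c (vertical axis) in the model with the replicate block, 1 point per tested miRNA (n = 367). Both axes share the HCT116 libraries. The orange diamonds mark the 4 miRNAs called without a called difference between the sublines, of which miR-22-3p lies farthest from the dotted line of equal change, whereas miR-30a-5p and miR-30a-3p lie far to the left and miR-203b-3p far below.

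The joint decreases without a called difference between the sublines were those of miR-143-3p, miR-27a-5p, miR-589-5p and miR-22-3p, and of these miR-143-3p and miR-27a-5p were also called in each subline. miR-143-3p is released from a hairpin on chromosome 5 of GRCh38, from 149428918 to 149429023 on the plus strand, in exon 4 of the noncoding transcript CARMN-209. In replicates 1, 2 and 3 it measured 177, 196 and 561 CPM in HCT116, 62.9, 132 and 312 CPM in HCT-Oxa-c, and 60.4, 108 and 393 CPM in HCT-FU-c. Replicate 3 was the highest library of each line, so the lines overlapped as groups, but within each replicate number both sublines lay below HCT116. The joint log2 fold change was -0.96 ± 0.17 (SE) with the block (edgeR adjusted p = 0.000712) and -0.81 ± 0.68 without it (edgeR adjusted p = 0.992). It was -0.97 ± 0.20 in HCT-Oxa-c, against -0.96 ± 0.21 in HCT-FU-c, and the difference between the sublines was -0.01, with a 95% interval from -0.44 to 0.42. Replicate 3 is also where the summed blood cell markers and the hepatocyte marker were high. With replicates 1 and 2 only the joint change was -1.14 with the block (edgeR adjusted p = 0.00081) and -1.04 without it, which was not called (edgeR adjusted p = 0.0539). Without HCT-Oxa-c replicate 1 the call was lost (log2 fold change -0.88, edgeR adjusted p = 0.0825).

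miR-143-3p stands on the list of fibroblast and endothelium markers, whose 6 members summed to 1320, 1290 and 1250 CPM in HCT116, 1010, 1020 and 846 CPM in HCT-Oxa-c, and 1090, 1160 and 1010 CPM in HCT-FU-c. The sum was lower in the sublines, and its most abundant member was miR-126-3p, an endothelial miRNA, at 432 to 980 CPM. Of the defining fibroblast markers, miR-214-3p was at 0 in 8 libraries and at 0.679 CPM in 1, miR-199a-5p did not pass 1.36 CPM in any library, and miR-199a-3p was found in all 9 libraries at 7.15 to 42.5 CPM. Of the 4 members tested only miR-143-3p was called, beside 18 of all 367 (4.9%), and the part of such cells in its decrease was not tested. In bulk libraries a smaller share of cells that carry a miRNA and a lower level per cell cannot be told apart. miR-145-5p, from the hairpin beside miR-143, gave a joint log2 fold change of -0.27 ± 0.17 with the block, -0.01 in HCT-Oxa-c, against -0.54 in HCT-FU-c, and was not called (edgeR adjusted p = 0.464).

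miR-27a-5p, the passenger strand of the miR-27a hairpin on chromosome 19 (13836440 to 13836517, minus strand), separated the groups fully. It measured 142, 178 and 123 CPM in HCT116, 82.8, 93.4 and 75.9 CPM in HCT-Oxa-c, and 61.9, 78.3 and 96.5 CPM in HCT-FU-c. All 6 subline libraries lay below all 3 HCT116 libraries, which 1.63% of the tested miRNAs did. Its joint log2 fold change was -0.87 ± 0.18 with the block (edgeR adjusted p = 0.00411), against -0.86 ± 0.22 without it (edgeR adjusted p = 0.171). HCT-Oxa-c changed by -0.81 ± 0.21 and HCT-FU-c by -0.92 ± 0.22, and the interval of their difference ran from -0.34 to 0.57. The call with the block was lost without HCT116 replicate 2 (edgeR adjusted p = 0.0758) and without HCT-Oxa-c replicate 1 (edgeR adjusted p = 0.082).

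miR-589-5p lies in intron 3 of FBXL18 on chromosome 7 (5495819 to 5495917, minus strand). Its levels were 72.6, 85.7 and 116 CPM in HCT116, 52.9, 59.0 and 58.5 CPM in HCT-Oxa-c, and 55.9, 45.2 and 42.9 CPM in HCT-FU-c. Here too every subline library was below every HCT116 library. Over both sublines the log2 fold change was -0.77 ± 0.20 with the block (edgeR adjusted p = 0.0247) and -0.80 ± 0.22 without it (edgeR adjusted p = 0.215). It was the single miRNA of the 18 that was called in HCT-FU-c (-0.89 ± 0.24, edgeR adjusted p = 0.0332) and not in HCT-Oxa-c (-0.66 ± 0.24, edgeR adjusted p = 0.0684), although the difference between the sublines, 0.23, was not called (95% interval -0.28 to 0.74). This call was among the less stable: it was lost when HCT116 replicate 2 or 3, HCT-FU-c replicate 3, or HCT-Oxa-c replicate 1 or 3 was left out, with edgeR adjusted p-values of 0.0858, 0.232, 0.0623, 0.14 and 0.0838, and likewise with replicates 1 and 2 only (0.157), total counts (0.068) or no filter (0.0558).

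miR-22-3p comes from exon 3 of the noncoding gene MIR22HG on chromosome 17 (1713903 to 1713987, minus strand). It measured 1410, 1150 and 349 CPM in HCT116, 806, 580 and 189 CPM in HCT-Oxa-c, and 715, 975 and 330 CPM in HCT-FU-c. Replicate 3 was the lowest library of each line, opposite to miR-143-3p, and within each number both sublines were below HCT116. The joint log2 fold change was -0.65 ± 0.15 with the block (edgeR adjusted p = 0.00852) and -0.70 ± 0.54 without it (edgeR adjusted p = 0.992), with -0.89 ± 0.18 in HCT-Oxa-c, against -0.42 ± 0.18 in HCT-FU-c. The difference between the sublines was -0.46 and missed the threshold (edgeR adjusted p = 0.0622), and its unadjusted 95% interval, -0.84 to -0.09, did not include 0. The call was lost with total counts in place of TMM (edgeR adjusted p = 0.051) and without HCT116 replicate 1 (edgeR adjusted p = 0.108), HCT-Oxa-c replicate 1 (0.0825) or HCT-Oxa-c replicate 3 (0.0516).

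**Figure D3:**
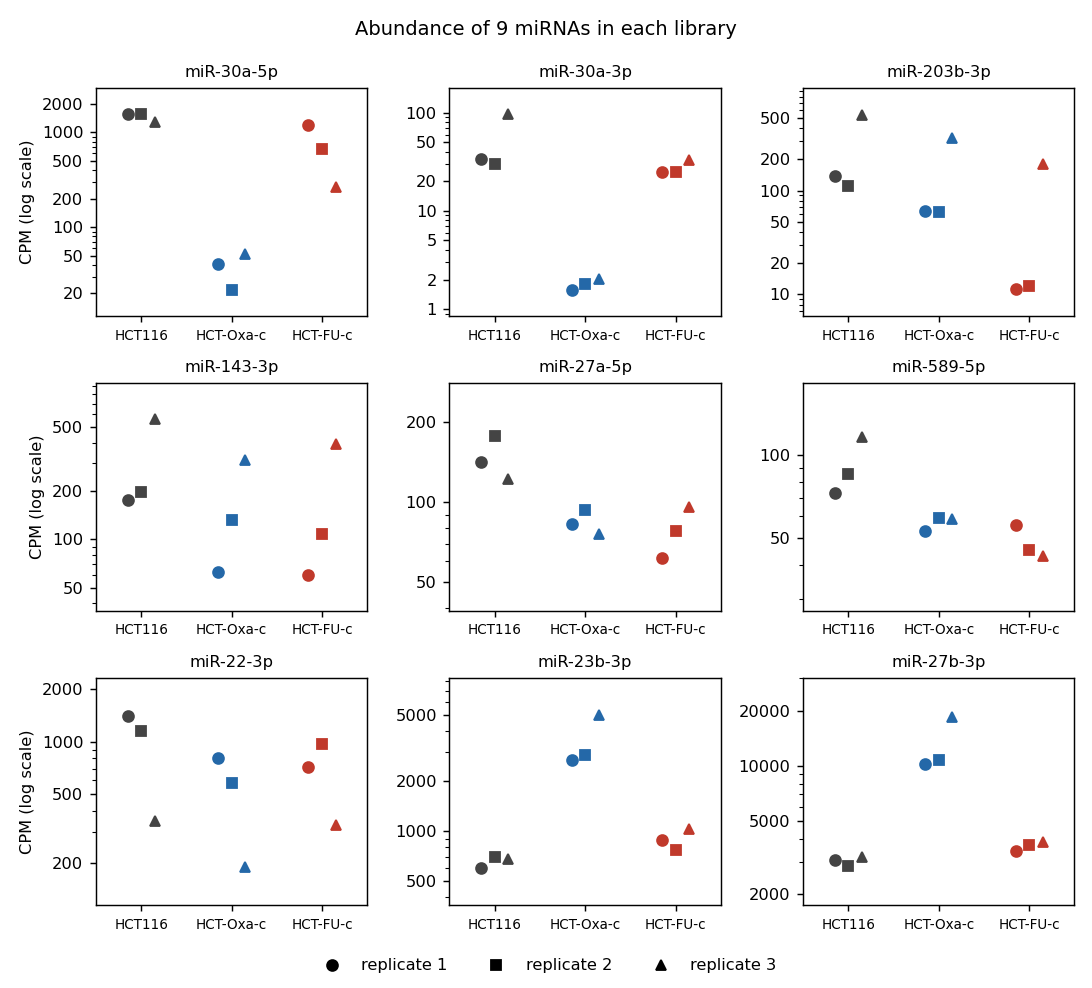
CPM on a log scale (vertical axis) of 9 miRNAs in the 3 libraries of each line (horizontal axis), with 1 symbol per replicate number. miR-27a-5p, miR-589-5p and miR-30a-5p were lower in all 6 subline libraries than in HCT116, miR-23b-3p and miR-27b-3p were higher, and for miR-143-3p, miR-22-3p and miR-203b-3p the lines overlapped because replicate 3 stood apart.

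The largest joint decrease was that of the miR-30a hairpin, on chromosome 6 (71403551 to 71403621, minus strand) within the noncoding transcript AL136164.2-201 (intron 2). Its guide miR-30a-5p belongs to the miR-30 family, known for repressing SNAI1 and the autophagy gene BECN1. It measured 1550, 1570 and 1280 CPM in HCT116, 40.4, 21.5 and 52.3 CPM in HCT-Oxa-c, and 1190, 662 and 267 CPM in HCT-FU-c. All 6 subline libraries were below HCT116, the HCT-Oxa-c libraries by far the lowest, and HCT-FU-c spread widely with its replicate 1 close to the lowest HCT116 library. Jointly the log2 fold change was -3.17 ± 0.42 without the block (edgeR adjusted p = 0.00909) and was called with it too. In the blocked model HCT-Oxa-c changed by -5.38 ± 0.35 and HCT-FU-c by -1.20 ± 0.28 (edgeR adjusted p = 0.0173), so edgeR called the decrease in each subline, whereas DESeq2 with the block did not call it in HCT-FU-c (-1.24, DESeq2 adjusted p = 0.212). Without the block the change in HCT-FU-c was not called either (-1.05 ± 0.50, edgeR adjusted p = 0.913). The sublines differed by -4.18 ± 0.34 (edgeR adjusted p = 4.12e-09). The call without the block held when each library was left out in turn.

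The passenger strand miR-30a-3p followed its guide at a lower level, with 33.9, 30.0 and 96.2 CPM in HCT116, 1.57, 1.79 and 2.05 CPM in HCT-Oxa-c, and 24.9, 25.2 and 33.3 CPM in HCT-FU-c. The HCT-Oxa-c libraries held 3, 4 and 2 counts and were near or at the floor, and the ratio of summed counts to HCT116, scaled for depth, was 0.0388, with a 95% counting interval from 0.0174 to 0.0755. HCT-FU-c replicate 3 overlapped HCT116, yet each same-number ratio was below 0 on the log2 scale. The joint log2 fold change was -2.88 ± 0.40 without the block (edgeR adjusted p = 0.00909), a call that was lost without HCT-Oxa-c replicate 2 (edgeR adjusted p = 0.0555). Leaving out HCT116 replicate 3, the highest library of that line, gave a smaller decrease of -2.17, still called (edgeR adjusted p = 0.0145). With the block the change was -4.59 ± 0.46 in HCT-Oxa-c, while the -0.75 ± 0.33 of HCT-FU-c was not called (edgeR adjusted p = 0.214).

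Of the 8 tested miRNAs of the miR-30 family, the 2 arms of miR-30a were called lower and none was called higher, beside 12 lower and 6 higher of all 367. The median joint log2 fold change of the list was 0.03, beside 0.02 over all tested miRNAs. The other 6 had joint log2 fold changes with the block from -0.09 for miR-30d-3p to 0.45 for miR-30b-5p. None of these 6 was called by edgeR with the block, 1 had an unadjusted p below 0.05, and DESeq2 called none of the 5 for which it gave an adjusted p.

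Members of the paralogous miR-23/27/24 clusters, reported in many tissues as regulators of lipid metabolism, vessel growth and epithelial plasticity, made up 7 of the 18 calls. Of the 10 tested, 3 were called higher and 4 lower with the block, beside 6 and 12 of all 367, and the median joint log2 fold change was 0.36. The direction followed the cluster: the 3 higher ones come from miR-23b/27b/24-1 in intron 14 of C9orf3 on chromosome 9, and the 4 lower ones from miR-23a/27a/24-2 on chromosome 19, in exon 1 of the noncoding transcript AC020916.1-201. These directions were the same under all scalings run. In HCT-Oxa-c alone 5 of the list were called higher and 5 lower with the block, beside 35 and 19 of all 367 (median change 0.77). In HCT-FU-c alone the counts were 0 and 1, beside 6 and 14 (median change -0.14). Of the list, miR-23b-5p passed the filter only through HCT-Oxa-c, with 38, 42 and 15 counts there, against 3, 4 and 4 in HCT116 and 2, 3 and 4 in HCT-FU-c. miR-23b-3p, from 95085208 to 95085304 on the plus strand, measured 595, 701 and 682 CPM in HCT116, 2660, 2880 and 5020 CPM in HCT-Oxa-c, and 885, 766 and 1030 CPM in HCT-FU-c. All 6 subline libraries lay above HCT116, as for 0.817% of the tested miRNAs, but HCT-FU-c replicate 2 exceeded the highest HCT116 library by less than the spread within HCT-FU-c. Its joint log2 fold change was 1.43 ± 0.26 without the block (edgeR adjusted p = 0.0459), and in the blocked model 2.36 ± 0.17 in HCT-Oxa-c, against 0.42 ± 0.17 in HCT-FU-c, where it was not called (edgeR adjusted p = 0.148). The sublines differed by 1.94 ± 0.17 (edgeR adjusted p = 1.03e-08).

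The call of miR-23b-3p without the block lay close to the threshold. It was lost with RLE size factors (edgeR adjusted p = 0.0549) and when HCT116 replicate 1, 2 or 3, HCT-FU-c replicate 1 or 2, or HCT-Oxa-c replicate 2 was left out, with edgeR adjusted p-values of 0.25, 0.146, 0.189, 0.0959, 0.0895 and 0.0756. With the block the highest value over the libraries left out and the alternatives was 0.00162.

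miR-27b-3p, from 95085445 to 95085541 on the plus strand, measured 3060, 2860 and 3180 CPM in HCT116, 10200, 10800 and 18400 CPM in HCT-Oxa-c, and 3420, 3710 and 3860 CPM in HCT-FU-c. The groups did not overlap, and HCT-FU-c lay just above HCT116. Over both sublines the log2 fold change was 1.17 ± 0.15 with the block (edgeR adjusted p = 6.66e-06) and 1.19 ± 0.23 without it (edgeR adjusted p = 0.0559), which passed the threshold with total counts (0.0338), without the filter (0.0263) and with DESeq2 (DESeq2 adjusted p = 7.47e-05). It was 2.07 ± 0.17 in HCT-Oxa-c, against 0.27 ± 0.16 in HCT-FU-c, and only the first was called. Its passenger strand miR-27b-5p was the single miRNA of the 18 whose signs differed, and like miR-23a-3p and miR-27a-3p it was added to the named miRNAs after its values were seen. It stood at 22.4, 15 and 65.4 CPM in HCT116, 150, 163 and 446 CPM in HCT-Oxa-c, and 12.8, 13.7 and 44.1 CPM in HCT-FU-c. The joint change of 1.22 ± 0.22 (edgeR adjusted p = 0.000712 with the block, 0.992 without) was thus the mean of unlike changes, a rise of 2.95 ± 0.23 in HCT-Oxa-c and, uncalled, -0.52 ± 0.27 in HCT-FU-c.

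From the miR-23a/27a/24-2 cluster, miR-23a-3p measured 8570, 10600 and 8480 CPM in HCT116, 4440, 4530 and 4910 CPM in HCT-Oxa-c, and 8410, 6760 and 9830 CPM in HCT-FU-c. HCT-Oxa-c lay below the other lines and HCT-FU-c overlapped HCT116. The joint log2 fold change of -0.58 ± 0.14 with the block (edgeR adjusted p = 0.00882, and 0.372 without it) came from -1.0 ± 0.16 in HCT-Oxa-c, against -0.16 ± 0.16 in HCT-FU-c. miR-27a-3p had -0.45 ± 0.13 in the joint contrast (edgeR adjusted p = 0.0457 with the block and 0.786 without it), -0.83 ± 0.16 in HCT-Oxa-c, against -0.08 ± 0.15 in HCT-FU-c. miR-24-2-5p gave a joint value of -0.85 ± 0.19 with the block (edgeR adjusted p = 0.00644, and 0.992 without it), with -1.46 ± 0.23 in HCT-Oxa-c, against -0.24 ± 0.22 in HCT-FU-c. For each of these 3 the difference between the sublines was called, which it was not for miR-27a-5p of the same transcript. miR-24-3p, which both clusters encode, gave -0.33 ± 0.15 and was not called (edgeR adjusted p = 0.282), with -0.53 in HCT-Oxa-c, against -0.13 in HCT-FU-c. It was called without HCT-FU-c replicate 2 (-0.44, edgeR adjusted p = 0.0142).

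The calls of this cluster depended on single libraries. With the block, miR-24-2-5p was lost without HCT-Oxa-c replicate 1 (edgeR adjusted p = 0.0777), and miR-23a-3p without HCT116 replicate 2, HCT-Oxa-c replicate 1 or HCT-Oxa-c replicate 3 (edgeR adjusted p = 0.307, 0.14 and 0.0516). miR-27a-3p kept its call in 2 of the 9 settings with 1 library left out, those without HCT-FU-c replicate 1 or replicate 2. In the other 7 its edgeR adjusted p-values ran from 0.0516 without HCT-Oxa-c replicate 3 to 0.461 without HCT116 replicate 2. It was also lost with total counts (0.166), without the filter (0.175), with at least 10 counts asked of every library (0.112) and with replicate 3 against the others as the block (0.0585), the last a setting chosen after seeing the data.

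Of the 14 called miRNAs with a called difference between the sublines, miR-203b-3p was the 1 with the larger change in HCT-FU-c. Its hairpin on chromosome 14 (104117418 to 104117503, minus strand) overlaps that of miR-203a, an inducer of epithelial differentiation, on the opposite strand, and whether the counting used strand is not given in the sources used here, so both counts are uncertain. It measured 138, 111 and 529 CPM in HCT116, 63.4, 61.7 and 323 CPM in HCT-Oxa-c, and 11.3, 12.1 and 179 CPM in HCT-FU-c. Replicate 3 was the highest of each line and made the lines overlap, and within each number the order was HCT116, HCT-Oxa-c, HCT-FU-c. The joint log2 fold change was -1.72 ± 0.22 with the block (edgeR adjusted p = 7.54e-06) and -1.39 ± 0.95 without it (edgeR adjusted p = 0.992). HCT-Oxa-c changed by -0.91 ± 0.26 (edgeR adjusted p = 0.0194) and HCT-FU-c by -2.52 ± 0.29 (edgeR adjusted p = 3.85e-06). With replicates 1 and 2 only, the joint change was -2.21 with the block (edgeR adjusted p = 9.79e-08). Without the block the joint change hung on single libraries, from -0.36 without HCT116 replicate 3 to -2.62 without HCT-FU-c replicate 3.

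Outside the miR-23b and miR-27b hairpins, the miRNAs called higher in the joint contrast were miR-205-5p, miR-379-5p and miR-487b-3p, and none of these 3 was called in HCT-FU-c alone by edgeR or DESeq2 with the block. Of these, miR-205-5p and miR-487b-3p passed the filter only through the libraries of HCT-Oxa-c. A high level in that subline was thus a condition of their being tested, and their joint calls are no independent support for a rise. miR-205-5p, which with the miR-200 family represses ZEB1 and ZEB2, lies on chromosome 1 (209432133 to 209432242, plus strand) at the edge of exon 4 of MIR205HG. It had 2, 0 and 0 counts in HCT116, 69, 48 and 31 in HCT-Oxa-c, and 4, 7 and 0 in HCT-FU-c. HCT-Oxa-c was above the floor in all libraries, HCT-FU-c in replicates 1 and 2, and HCT116 in none. Scaled for depth, the ratio to HCT116 was 52.4 in HCT-Oxa-c (95% counting interval 14.2 to 436), against 4.9 in HCT-FU-c (1.07 to 45.5). The joint contrast was called with the block (edgeR adjusted p = 0.00816, and 0.171 without it), and the change in HCT-FU-c was not (edgeR adjusted p = 0.313). Without HCT116 replicate 2 or HCT-Oxa-c replicate 1 the joint call was lost (edgeR adjusted p = 0.0543 and 0.122).

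miR-379-5p and miR-487b-3p both lie in the imprinted DLK1-DIO3 region of chromosome 14, a large cluster that is usually expressed from the maternal chromosome. miR-379-5p (101022066 to 101022132, plus strand, intron 24 of the noncoding transcript MEG8-221) measured 12.2, 10.0 and 46.7 CPM in HCT116, 51.9, 61.2 and 145 CPM in HCT-Oxa-c, and 15.9, 18.4 and 38.1 CPM in HCT-FU-c. HCT-Oxa-c was above HCT116 within each number, and HCT-FU-c was above in replicates 1 and 2 and below in replicate 3. Its joint value of 1.15 ± 0.27 with the block (edgeR adjusted p = 0.00937, and 0.992 without it) was the mean of 2.04 ± 0.29 and 0.26 ± 0.32. miR-487b-3p (101046455 to 101046538, plus strand, intron 1 of MIR381HG), at 2.67 to 5.71 CPM in HCT116, had a depth-scaled ratio of 7.5 in HCT-Oxa-c (95% counting interval 4.41 to 13.7), against 1.43 in HCT-FU-c (0.718 to 2.92), an interval that includes 1. Its joint call (edgeR adjusted p = 0.0457 with the block, 0.252 without) was lost in 7 of the 9 settings with 1 library left out, all except those without HCT-FU-c replicate 1 or 2, with edgeR adjusted p-values from 0.0623 to 0.182, and also with RLE size factors (0.0516) and with replicates 1 and 2 only (0.208). The call of miR-379-5p was lost without HCT116 replicate 2 (edgeR adjusted p = 0.156) or HCT-Oxa-c replicate 1 (0.0825). Of the 17 tested miRNAs of the region, these 2 were called higher and none lower in the joint contrast, beside 6 and 12 of all 367. The median change of the 17 was 2.11 in HCT-Oxa-c, against -0.03 in HCT-FU-c, beside -0.01 and 0.02 over all tested miRNAs. Only 17 of 44 listed miRNAs of the region were tested, and several passed the filter only through HCT-Oxa-c. One such was miR-376a-3p, with 27, 27 and 29 counts there, against 3, 0 and 3 in HCT116 and 5, 3 and 5 in HCT-FU-c. The high median in HCT-Oxa-c is therefore partly built in by the filter, and no rise of the region is read from it.

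The other decreases were those of a pair of intronic miRNAs. miR-629-5p, in intron 4 of TLE3 on chromosome 15 (70079372 to 70079468, minus strand), measured 204, 136 and 144 CPM in HCT116, 67.1, 66.2 and 72.8 CPM in HCT-Oxa-c, and 129, 106 and 135 CPM in HCT-FU-c. All 6 subline libraries lay below HCT116, with HCT-FU-c in between and its highest library at 135 CPM against 136 CPM. Jointly the log2 fold change was -0.81 ± 0.17 with the block (edgeR adjusted p = 0.00411, and 0.171 without it), from -1.22 ± 0.21 in HCT-Oxa-c, against -0.39 ± 0.20 in HCT-FU-c, and it was lost without HCT116 replicate 1 (edgeR adjusted p = 0.132) or HCT-Oxa-c replicate 1 (0.0825). miR-330-3p, in intron 1 of EML2 on chromosome 19 (45638994 to 45639087, minus strand), had -0.60 ± 0.17 (edgeR adjusted p = 0.0364 with the block, 0.358 without), from -0.91 ± 0.20 and -0.29 ± 0.20. Its call was lost when HCT116 replicate 1 or 3, HCT-FU-c replicate 1, or HCT-Oxa-c replicate 1 or 3 was left out, with edgeR adjusted p-values of 0.463, 0.134, 0.162, 0.163 and 0.11. It was lost as well with total counts (0.115), no filter (0.15), TMM without the most abundant miRNA (0.0556) and replicates 1 and 2 only (0.0704).

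Over all tested miRNAs, the 6 same-number ratios were all above 0 for 4.36% and all below 0 for 6.81%, and for 12 of the 18 called miRNAs the 6 ratios shared a sign. Nothing is read from that share, because the blocked model made its calls on these same differences and the ratios share the HCT116 libraries. These 12 included miR-143-3p, miR-22-3p and miR-203b-3p, whose groups overlapped as pools. All 3 HCT-FU-c ratios of miR-27b-5p were below 0 and all 3 HCT-Oxa-c ratios above it. The 18 called miRNAs had a median HCT116 level of 166 CPM, beside 50.5 CPM over those tested.

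A set of 4 further miRNAs was called in each subline separately but in opposite directions, so that their joint changes were near 0, and none of these joint changes was called. miR-218-5p is made from hairpins in intron 16 of SLIT2 on chromosome 4 (20528275 to 20528384, plus strand) and intron 14 of SLIT3 on chromosome 5 (168768146 to 168768255, minus strand). It measured 62.4, 58.6 and 69.4 CPM in HCT116, 88.6, 147 and 97.5 CPM in HCT-Oxa-c, and 24.2, 30.5 and 41.7 CPM in HCT-FU-c. All HCT-Oxa-c libraries were above and all HCT-FU-c libraries below HCT116. In the blocked model it rose by 0.80 ± 0.24 in HCT-Oxa-c (edgeR adjusted p = 0.0291), against changed by -1.03 ± 0.27 in HCT-FU-c (edgeR adjusted p = 0.023), for a joint value of -0.12. miR-203a-3p measured 2150, 1880 and 2550 CPM in HCT116, 3680, 3070 and 4340 CPM in HCT-Oxa-c, and 1540, 1090 and 1920 CPM in HCT-FU-c. It changed by 0.75 ± 0.14 and -0.56 ± 0.14, while miR-203b-3p from the opposite strand was lower in both sublines.

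miR-181b-5p and miR-181a-3p, from a family known for its part in lymphocyte signalling and in cancer cell lines, showed the same split. miR-181b-5p, encoded at 2 loci, had log2 fold changes of 1.18 ± 0.16 in HCT-Oxa-c, against -0.69 ± 0.17 in HCT-FU-c with the block, and miR-181a-3p had 0.82 ± 0.27 and -1.01 ± 0.29, of which DESeq2 with the block did not call the first (DESeq2 adjusted p = 0.0529). Of the 8 tested members of the miR-181 family none was called in the joint contrast by edgeR with the block or by DESeq2 with it, with 1 at an unadjusted p below 0.05, and their median change was 0.66 in HCT-Oxa-c, against -0.47 in HCT-FU-c. Without the block the edgeR adjusted p-values of these 4 miRNAs ran from 0.265 to 0.809 in HCT-Oxa-c and from 0.705 to 0.997 in HCT-FU-c. With the block 8 miRNAs were called in each subline separately, of which miR-30a-5p, miR-203b-3p, miR-143-3p and miR-27a-5p moved the same way.

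**Figure D4:**
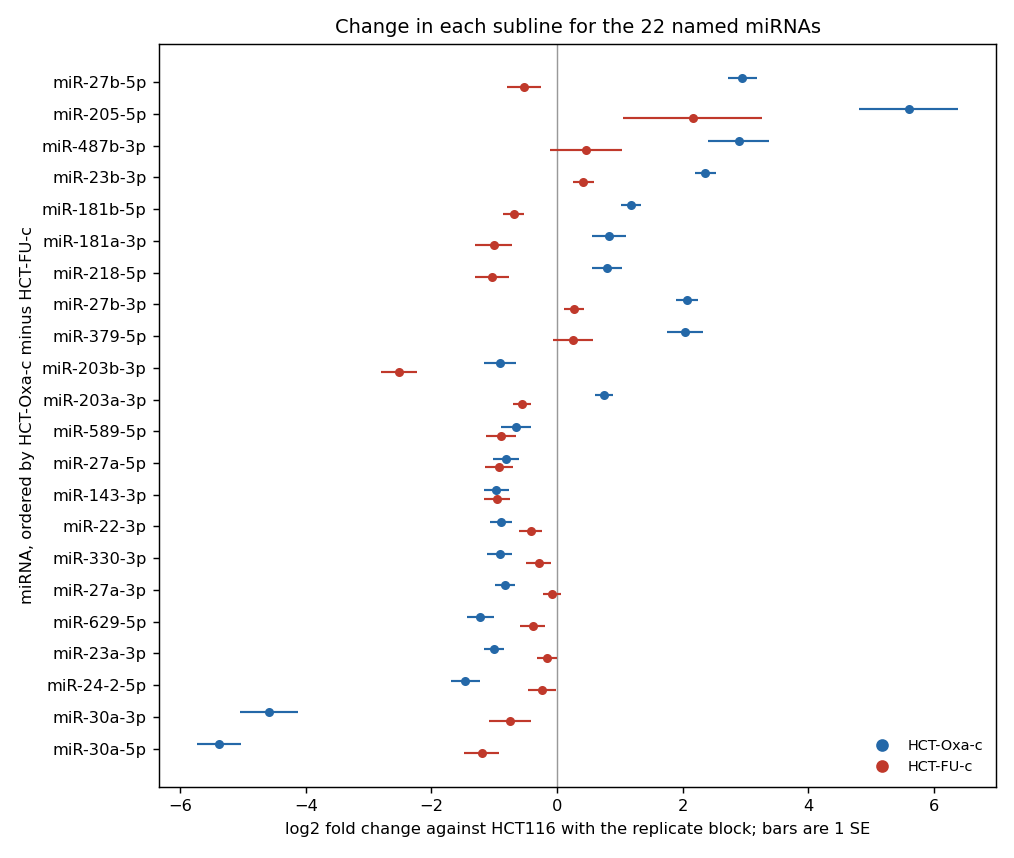
Log2 fold change against HCT116 in HCT-Oxa-c (blue) and HCT-FU-c (red) in the model with the replicate block (horizontal axis) for the 22 named miRNAs (vertical axis), with bars of 1 SE. miR-143-3p, miR-27a-5p and miR-589-5p show overlapping bars, and miR-218-5p, miR-203a-3p, miR-181b-5p and miR-181a-3p lie on opposite sides of 0.

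Most families described as lists showed no call in the joint contrast. None of the 8 tested miRNAs of the miR-200 family, the 16 of the miR-17 superfamily, the 9 let-7 guides, the 5 of the miR-29 family or the 9 of the miR-15/16 family was called with the block, and their median joint log2 fold changes were 0.04, 0.13, 0.32, 0.19 and 0.01, beside 0.02 over all tested miRNAs. The test was edgeR's, 5 of these 47 miRNAs had an unadjusted p below 0.05, and DESeq2 with the block called 1. miR-92a-3p, the most abundant of the miR-17 superfamily, had a joint log2 fold change of 0.36 (0.38 in HCT-Oxa-c, 0.34 in HCT-FU-c) and let-7b-5p had 0.37 (0.40 and 0.33), and for both all 6 same-number ratios were above 0. Of the 7 tested p53-responsive miRNAs, 1 was called lower, which was miR-143-3p, beside 12 of all 367 (3.27%), and the median was 0.18, beside 0.02. A list of 7 miRNAs that the study's text names for thymidylate synthase or dihydropyrimidine dehydrogenase, the target and the degrading enzyme of 5-FU, held 1 joint call in each direction, beside 6 higher and 12 lower of all 367, and its median was 0.09, beside 0.02. For each subline alone the block gave 4 calls upward and 1 downward on this list in HCT-Oxa-c, against 1 and 2 in HCT-FU-c, where all 367 tested miRNAs had 35 and 19 in the first and 6 and 14 in the second.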

How the data were processed

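Small RNA libraries of the parental line and both sublines, 3 biological replicates each, were prepared from total RNA by the authors and sequenced on an Illumina MiSeq. The authors deposited read counts per mature miRNA (1198 listed), not normalized. A signal deposited alongside, which holds these counts divided by the authors' scaling factors, was not used here. The submitters' processing notes name CASAVA 1.8, Bowtie 1.1.2, DESeq2 and GRCh38.p7. The paper gives DMEM as medium and the sample labels an RPMI medium.

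Counts were tested with edgeR 4.0.16 (R 4.3.3, limma 3.58.1), with TMM scaling and a quasi-likelihood model that held the line as factor and took in all 9 libraries. filterByExpr (minimum count 10, minimum total 15) kept 367 miRNAs, fold changes on the log2 scale had a prior count of 0.125, with Benjamini-Hochberg adjustment of p. Contrasts were the mean of both sublines against HCT116 (weight 0.5 each), each subline against HCT116, and the sublines against each other. Same-number log2 ratios used CPM + 0.5, and counting intervals are exact at 95%. Replicates of a line differed by more than sampling noise (chi-square 11.6 to 461 per degree of freedom). The biological coefficient of variation was 0.458 without and 0.174 with the replicate block.

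The pairing comes from replicate numbers in the labels, which name no batch or date. Deviations from the line means correlated between libraries of the same number by 0.37 to 0.73 and between different numbers by -0.66 to 0.60. Every same-number pair was over 0.1, so same-numbered libraries were treated as pairs, although replicates 1 and 2 correlated with each other about as strongly and mainly replicate 3 was set apart.

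Named miRNAs were all those called without the block, up to 10 rises and 10 decreases called with the block and alike in sign, those called in both sublines separately, and the 3 largest joint changes among called miRNAs whose sublines differed in sign or by a called difference; miR-23a-3p, miR-27a-3p and miR-27b-5p were added after their values were seen. Lists of marker cells and miRNA families were described by counts and medians, without a set test. Members and lists were chosen with earlier results of these data known. Alternatives were other scalings (RLE, total counts, TMM leaving out miR-21-5p, the most abundant miRNA), filters, DESeq2 1.42.0, the block, 1 resistant group, and each library left out in turn. The procedure was also run on simulated data, and no result here rests on that run. Hairpin positions come from RefSeq and GENCODE on GRCh38.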

Additional observations from a re-analysis of the deposited data

Results flagged for a closer look

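For 18 of the named miRNAs the change against HCT116 differed between the sublines by a test of the difference itself, HCT-Oxa-c minus HCT-FU-c in the model with the replicate block (edgeR, Benjamini-Hochberg adjusted). The largest differences were those of miR-30a-5p (-4.18, adjusted p = 4.12e-09) and miR-30a-3p (-3.85, adjusted p = 2.14e-06), lower in HCT-Oxa-c. Higher in HCT-Oxa-c were miR-27b-5p (3.47, adjusted p = 2.37e-10), miR-205-5p (3.44, adjusted p = 0.000173, on few counts), miR-487b-3p (2.44, adjusted p = 0.000308), miR-23b-3p (1.94), miR-27b-3p (1.8) and miR-379-5p (1.79). Of these, miR-205-5p and miR-487b-3p had passed the filter only through HCT-Oxa-c. The miRNAs that moved in opposite directions differed by 1.87 for miR-181b-5p, 1.83 for miR-181a-3p, 1.82 for miR-218-5p and 1.31 for miR-203a-3p. Without the block edgeR did not call the difference for miR-181b-5p (adjusted p = 0.169) or miR-181a-3p (0.142). DESeq2 without the block called both (DESeq2 adjusted p = 0.032 and 0.0285). For miR-218-5p and miR-203a-3p edgeR called it without the block too (adjusted p = 0.0114 and 0.0343). miR-203b-3p fell further in HCT-FU-c, with a difference of 1.61 (adjusted p = 0.00018). The decreases of miR-24-2-5p (-1.22), miR-23a-3p (-0.84), miR-629-5p (-0.83), miR-27a-3p (-0.74) and miR-330-3p (-0.62, adjusted p = 0.0239) were larger in HCT-Oxa-c. For miR-330-3p DESeq2 with the block did not call the difference (-0.55, DESeq2 adjusted p = 0.0618). The joint value of each of these 18 miRNAs is thus a mean over unequal changes. No explanation for any of them was tested.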

How the results depend on the processing

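The count of miRNAs called for both sublines against HCT116 without the block, 3 by edgeR (1 higher), was 18 with the replicate block, 6 without a filter, 9 with DESeq2, 14 with replicates 1 and 2 only (chosen after seeing the data), 21 at an unadjusted p below 0.05, and 0 with the 6 subline libraries as 1 group. Called with the same sign in both sublines, 3, became 17, 6, 9 and 13 in the first 4 of these. With each library left out in turn both counts ran from 1 (without HCT-Oxa-c replicate 2) to 4. With the block the 18 calls ran from 15 to 22 over the other settings and over the libraries left out from 6, where HCT-Oxa-c replicate 1 was missing, up to 36, where HCT-FU-c replicate 2 was, and the 17 of the same sign from 5 to 34. With total counts 8 of 16 blocked calls were higher, against 6 of 18 with TMM. Without the block 0 of 2 were higher with RLE size factors, and 2 of 4 with total counts or with TMM without the most abundant miRNA. Of the miRNAs whose groups did not overlap, 3 of 9 were higher with TMM, 4 of 11 with RLE and 4 of 7 with total counts. DESeq2 with the block called 20, including all 18. HCT-Oxa-c alone went from 9 calls to 54 with the block and 23 with DESeq2, HCT-FU-c from 0 to 20 and 4, and the difference between the sublines from 16 to 97 and 43; DESeq2 for these was added after seeing the data. The causes were not tested. Of 760 alternative values for single named miRNAs, 638 kept direction and side of the threshold, 48 newly passed it, 74 no longer did and 0 reversed. These values are joint changes or differences between the sublines, so a reversal within 1 subline is not counted. For example, without HCT-FU-c replicate 2 the change of miR-23a-3p in HCT-FU-c was 0.04 with the block, against -0.16 with all libraries. Under all blocked alternatives and libraries left out, miR-30a-5p, miR-30a-3p, miR-203b-3p, miR-27b-5p, miR-27b-3p and miR-23b-3p kept their call, where at least 10 counts in every library gave no value for miR-30a-3p, miR-205-5p and miR-487b-3p. Scaling moved the median joint log2 fold change of all tested miRNAs to between 0 and 0.1. Depth limits miRNAs near 1.34 to 4.01 CPM, where 3 counts were not told from 0. With 1 subline per drug nothing here separates resistance from the history of that subline.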

Other observations

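A further 29 tested miRNAs had all 6 same-number ratios on one side of 0 without being called by edgeR with the block, 14 above and 15 below, and those named here were chosen after their values were seen. miR-190a-5p measured 4.75, 10.7 and 14.7 CPM in HCT116, 18.3, 14.8 and 56.4 CPM in HCT-Oxa-c, and 27.2, 11 and 41.7 CPM in HCT-FU-c. Its joint log2 fold change with the block was 1.34 ± 0.40 and missed the threshold (edgeR, Benjamini-Hochberg adjusted p = 0.0556), whereas DESeq2 with the block called it (DESeq2 adjusted p = 0.0432), with 1.38 in HCT-Oxa-c, against 1.31 in HCT-FU-c. miR-152-3p, a member of the miR-148/152 family, gave 0.73 ± 0.22 (edgeR adjusted p = 0.0639), with 0.83 and 0.63, and miR-3187-3p gave -1.20 ± 0.41 (edgeR adjusted p = 0.0938), with -1.24 and -1.17. miR-24-1-5p, the passenger strand of the miR-24-1 hairpin beside miR-23b and miR-27b, had 2.30 ± 0.74 (edgeR adjusted p = 0.0787), with 2.51 in HCT-Oxa-c, against 2.08 in HCT-FU-c, on 0 to 2.86 CPM in HCT116. Its counts were 2, 4 and 0 in HCT116, 16, 29 and 4 in HCT-Oxa-c, and 18, 10 and 1 in HCT-FU-c. The replicate 3 ratio of HCT-FU-c thus rests on 1 count against 0, below the floor of 3 counts. The 95% interval of the difference between the sublines ran from -0.87 to 1.73, too wide to tell an equal change from an unequal one.

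HCT-FU-c replicate 2 had the highest TMM factor, 1.28, against 0.87 to 1.08 in the other libraries. Without it the blocked model called 36 miRNAs, all 18 of the former among them and 18 more, of which 11 were higher in the sublines. Among these were miR-190a-5p (1.52, edgeR adjusted p = 0.00692), miR-10b-5p (0.60, edgeR adjusted p = 0.000805), let-7f-5p (0.47, edgeR adjusted p = 0.0111), miR-92a-3p (0.41, edgeR adjusted p = 0.0189) and miR-195-5p (-1.58, edgeR adjusted p = 0.0295).

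Of the 1198 listed miRNAs 831 were too low to test. Of these, 33 had 0 counts in all HCT116 libraries and more than 3 in at least 1 subline library, and 61 had 0 counts in HCT116 and some in both sublines. The sublines had 6 libraries against 3 of HCT116, so a rare miRNA was likelier to be seen only in the sublines. The reverse count was not made, and no gain in the sublines is read from these numbers.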
